A study of Mus musculus with 90 samples.

Results

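The 35 genes described here carry out or mark the cell division cycle in mouse liver. They were chosen by symbol and matched to the Entrez gene identifiers of both count tables, as 35 of the 24475 genes in each table. A set of 16 covers the passage through G1 into S phase and DNA replication (Ccnd1, Ccnd2, Ccne1, Ccne2, E2f1, Cdc6, Mcm2, Mcm3, Mcm4, Mcm5, Mcm6, Mcm7, Pcna, Rrm1, Rrm2 and Tyms), and a set of 19 covers mitosis (Mki67, Top2a, Cdk1, Ccna2, Ccnb1, Ccnb2, Foxm1, Plk1, Aurka, Aurkb, Bub1, Bub1b, Cdc20, Ube2c, Birc5, Cenpa, Cenpe, Kif11 and Kif20a). The 90 liver RNA-seq libraries fall into 9 groups of 10 in 2 experiments that were counted in separate tables. In experiment 1, mice injected with AAV8 carrying an shRNA had a knockdown (KD) of the glucagon receptor gene (Gcgr KD) or of the G protein alpha subunit gene that couples the receptor to cAMP production (Gnas KD). Others had a knockdown of protein kinase A (PKA KD) or of the cAMP-responsive exchange factor Epac2 (Epac2 KD), and a Control group was set beside them. In experiment 2 the shRNA was directed at Prkar1a, the regulatory subunit that holds protein kinase A inactive, and was combined with an antibody (mAb). The groups were Control AAV with Gcgr mAb, Prkar1a KD with Control mAb, Prkar1a KD with Gcgr mAb, and Control AAV with Control mAb. The series' design text names the aim as activating protein kinase A with or without inhibition of the receptor. Strain, age, viral dose, time after injection and the content of the control virus are not stated in the sources used here. Whether the 10 samples of a group are separate mice is not stated either, so every p-value measures spread among the samples alone. In whole liver, fewer cells of a type and less RNA per cell cannot be told apart.

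A cell that leaves quiescence makes D-type cyclins, which start to inactivate the retinoblastoma family and so release E2F factors. E2F factors then drive cyclin E, the MCM helicase subunits and the enzymes that make deoxynucleotides. Genes of mitosis come later in the cycle, under complexes built on the MuvB core together with B-Myb and FOXM1, and their products condense, align and separate the chromosomes. Adult hepatocytes are mostly quiescent and enter the cycle again after loss of liver tissue.

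Promoters of the 2 sets differ in the short words they hold, and 5 are shown because their genes had large differences between Gnas KD and Epac2 KD livers, the comparison with the most called members. Of the 35 members, 27 have an entry in the RefSeq promoter table (build GRCm38.p6), which spans 250 bases before to 50 bases after each start; the 8 with none are Aurkb, Ccna2, Ccnd1, Ccnd2, Ccne2, Foxm1, Kif20a and Mcm4. The words searched on both strands were the E2F words TTTCCCGC, TTTCGCGC, TTTGCCGC and TTTGGCGC, the cell cycle homology region (CHR) words TTTGAA and TTCGAA, and CCAAT. Each sequence runs 5′ to 3′ along its gene, with E2F words in capitals in Cdc6 and Mcm6 with CHR words and CCAAT in capitals in Cdc20 and Ccnb2, and with CCAAT alone in capitals in Ccnb1, whose window holds no CHR word searched. Cdc6, which loads the replicative helicase, has its window at chr11:98907901-98908200 on the plus strand. That window lies inside the span of the gene (chr11:98907709-98923942), so it belongs to an internal start. Mcm6, a subunit of that helicase, lies at chr1:128359656-128359955 on the minus strand, and the first run of capitals there holds 2 overlapping E2F words. Ccnb1 (cyclin B1) is at chr13:100786437-100786736, Cdc20 (an activator of the anaphase-promoting complex) at chr4:118437294-118437593 and Ccnb2 (cyclin B2) at chr9:70421505-70421804, all on the minus strand.
Cdc6: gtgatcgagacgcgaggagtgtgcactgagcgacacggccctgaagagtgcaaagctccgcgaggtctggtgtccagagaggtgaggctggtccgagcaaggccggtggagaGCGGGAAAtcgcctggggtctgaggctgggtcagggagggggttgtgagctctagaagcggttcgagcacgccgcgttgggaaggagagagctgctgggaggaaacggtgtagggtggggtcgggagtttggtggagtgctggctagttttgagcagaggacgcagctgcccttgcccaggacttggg
Mcm6: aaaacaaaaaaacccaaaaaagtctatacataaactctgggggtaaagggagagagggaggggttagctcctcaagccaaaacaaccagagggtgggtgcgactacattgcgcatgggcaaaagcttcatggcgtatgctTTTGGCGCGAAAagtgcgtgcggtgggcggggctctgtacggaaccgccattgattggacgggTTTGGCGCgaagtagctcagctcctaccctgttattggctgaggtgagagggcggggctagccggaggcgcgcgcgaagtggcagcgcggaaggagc
Ccnb1: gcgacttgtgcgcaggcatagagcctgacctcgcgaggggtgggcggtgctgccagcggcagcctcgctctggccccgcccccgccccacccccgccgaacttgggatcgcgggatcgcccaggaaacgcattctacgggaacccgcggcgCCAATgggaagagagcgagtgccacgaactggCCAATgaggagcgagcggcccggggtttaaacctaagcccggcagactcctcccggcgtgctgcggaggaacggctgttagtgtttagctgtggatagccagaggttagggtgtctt
Cdc20: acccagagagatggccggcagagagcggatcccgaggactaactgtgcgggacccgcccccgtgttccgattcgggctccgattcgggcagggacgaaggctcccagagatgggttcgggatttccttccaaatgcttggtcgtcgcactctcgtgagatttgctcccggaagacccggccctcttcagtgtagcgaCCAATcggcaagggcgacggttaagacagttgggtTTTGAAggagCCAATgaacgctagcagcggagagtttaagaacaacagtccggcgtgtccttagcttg
Ccnb2: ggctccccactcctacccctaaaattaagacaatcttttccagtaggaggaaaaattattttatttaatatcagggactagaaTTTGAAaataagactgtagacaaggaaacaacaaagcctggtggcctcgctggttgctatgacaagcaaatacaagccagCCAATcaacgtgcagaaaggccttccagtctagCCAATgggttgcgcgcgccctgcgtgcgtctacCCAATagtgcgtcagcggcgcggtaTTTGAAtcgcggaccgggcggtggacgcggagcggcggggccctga

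Among the 13 promoters of the G1/S and replication genes, which count 2 starts of Mcm7, 5 (38.5%) held an E2F word, 2 (15.4%) a CHR word and 9 (69.2%) CCAAT. Of the 15 promoters of mitosis genes, 1 (6.67%) held an E2F word, 12 (80%) a CHR word and 14 (93.3%) CCAAT. Over all 32851 promoters in the table, each 300 bases long, the shares were 2.26%, 19.2% and 37.4%. These matches describe letters in a window and say nothing of whether a factor binds there.

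**Figure D1:**
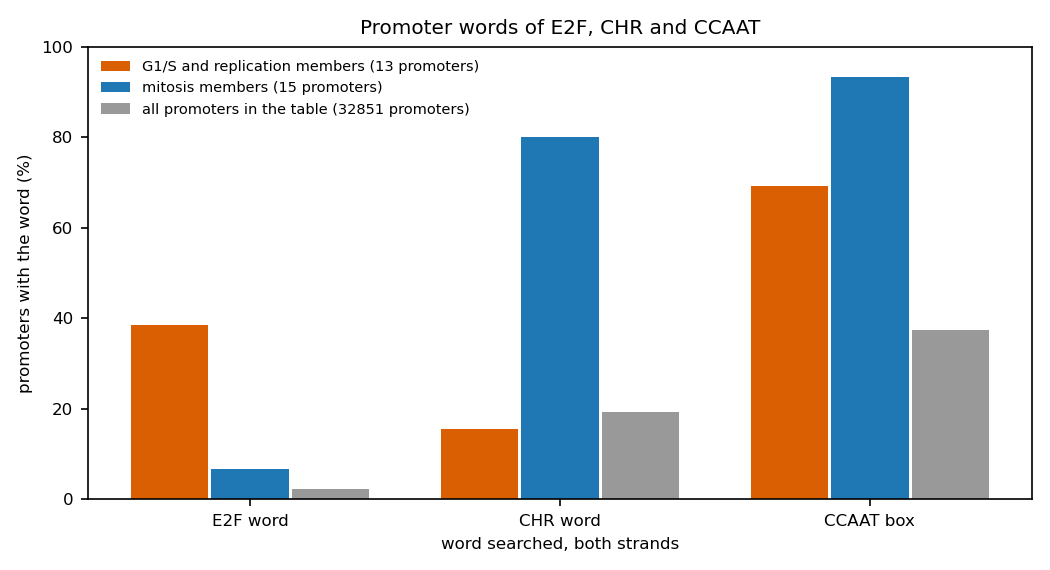
Share of promoters, in percent, that hold an E2F word, a CHR word or CCAAT on either strand, for the G1/S and replication genes (13 promoters), the mitosis genes (15) and all 32851 RefSeq promoters. The bars show CHR words in 80% of mitosis promoters and E2F words in 38.5% of G1/S and replication promoters, against 19.2% and 2.26% of all promoters.

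Libraries held 20813066 to 33709500 counts in experiment 1 and 8870340 to 19481413 in experiment 2. Values are given as CPM, a gene's counts relative to the total of its library as scaled by TMM. A gene is called when edgeR's quasi-likelihood test gave a Benjamini-Hochberg adjusted p under 0.05 over all genes tested (13574 in experiment 1 and 12847 in experiment 2). The targeted genes were lower where the labels name them. Gcgr stood at 38.3 to 54.1 CPM in Gcgr KD livers against 146 to 218 CPM in Control livers. Log2 fold changes were -2.80 for Gnas, -3.06 and -2.06 for the PKA catalytic subunits Prkaca and Prkacb, -3.27 for the Epac2 gene Rapgef4 and -1.94 for Prkar1a with Control mAb. Receptor mRNA gave no such check of the Gcgr mAb (log2 fold change -0.02, edgeR adjusted p = 0.868). Hepatocyte markers were abundant in every group, with summed levels between 36916 and 141892 CPM over 8 genes. The library Control AAV + Gcgr mAb replicate 2 stood apart from its group: its mean over the mitosis genes lay 2.52 log2 units above the Control AAV + Control mAb mean, where the next library of its group lay 0.21 above it. That library was also the highest of its group in the summed markers of stellate cells (1012 CPM) and of Kupffer cells (680 CPM). The main results for the members that rest on it are given with and without it. Results for markers and other genes are given with it only.

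Of the 35 genes, 34 passed the filter on low counts in experiment 1 and all 35 in experiment 2. Bub1, a kinase of the spindle checkpoint, was the one that failed, with at most 0.664 CPM in any library of experiment 1. Measured as the mean log2 CPM over the tested members of a set minus the mean of the control group, the mitosis set had medians of 0.56 in Gcgr KD, 0.81 in Gnas KD, -0.20 in PKA KD and -0.55 in Epac2 KD, against -0.11 in Control livers. In 7 of the 10 Gnas KD libraries the mitosis mean exceeded the highest Control library, and in 8 of the 10 Epac2 KD libraries it lay below the lowest. In experiment 1 PKA KD libraries had the widest range, between -1.18 and 1.37 with an SD of 0.92, so that 3 were above and 5 below the whole Control range. In experiment 2 the medians were -0.35 with Control AAV and Gcgr mAb, 1.10 with Prkar1a KD and Control mAb and 1.11 with Prkar1a KD and Gcgr mAb, against -0.02 with Control AAV and Control mAb. The G1/S and replication set moved over a smaller range, with medians between -0.21 in Epac2 KD and 0.43 in Gnas KD, and 0.30 and 0.59 in the Prkar1a KD groups with Control mAb and with Gcgr mAb.

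**Figure D2:**
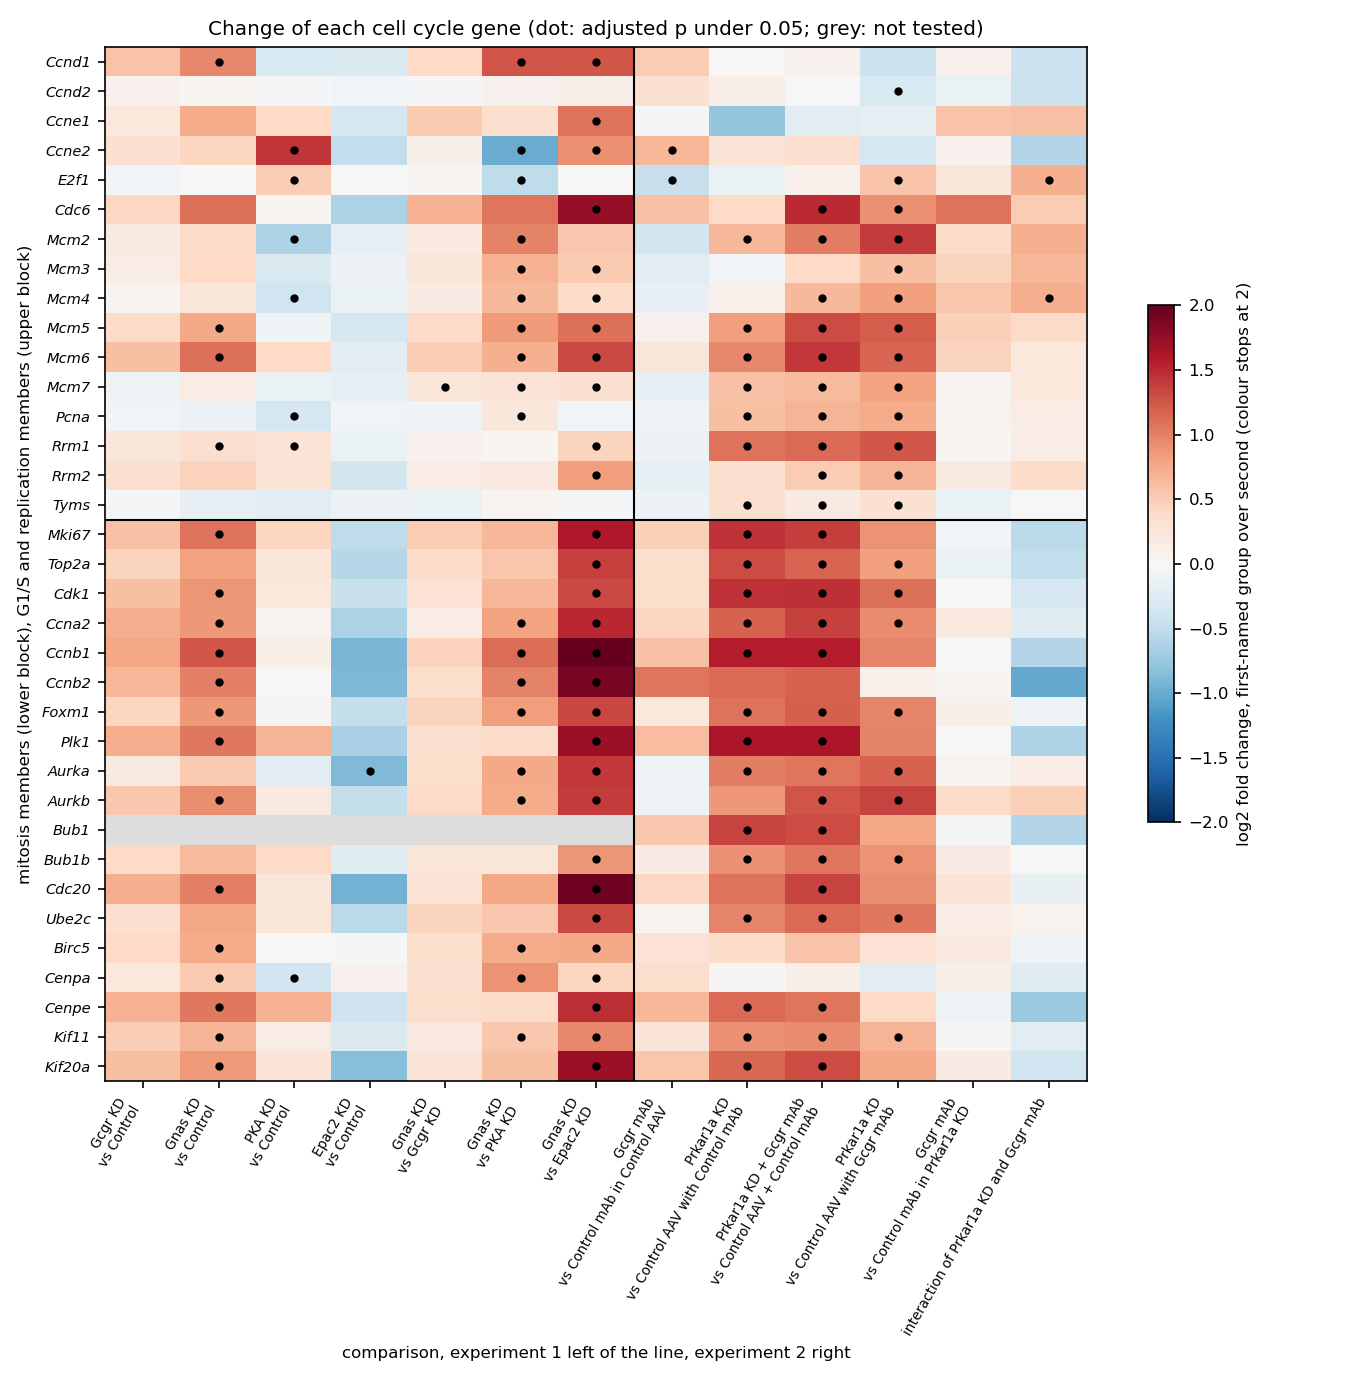
Log2 fold change of each of the 35 genes (rows, G1/S and replication above mitosis) in each comparison (columns), with a mark where edgeR's adjusted p was under 0.05; Bub1 was not tested in experiment 1. The mitosis rows are positive in all 18 tested genes in Gnas KD livers and in all 19 in Prkar1a KD livers with Control mAb, and negative in 17 of 18 in Epac2 KD livers.

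**Figure D3:**
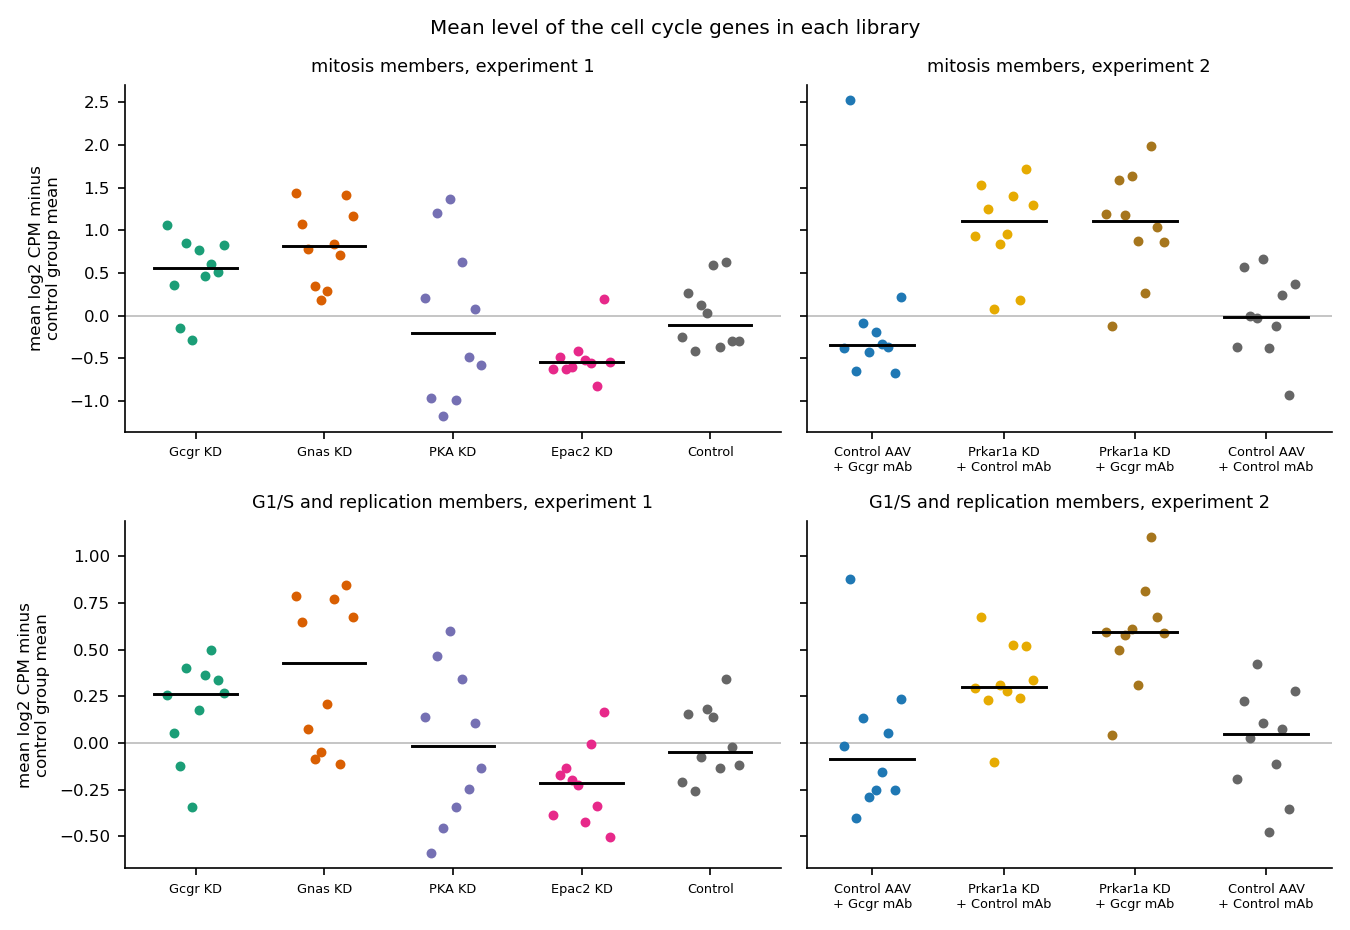
Mean log2 CPM over the G1/S and replication genes and over the mitosis genes, minus the mean of the control group, for each of the 10 libraries per group, with the group median. The mitosis values lie between 0.18 and 1.43 in Gnas KD and between -0.83 and 0.20 in Epac2 KD, and 1 library of Control AAV with Gcgr mAb stands at 2.52.

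Cell cycle genes of both sets rose in Gnas KD livers. In Gnas KD livers 18 of the 34 tested members were called higher and 0 lower than in Control livers, 4 of 16 in the G1/S and replication set and 14 of 18 in the mitosis set, where 6.83% of all genes tested were called higher and 8.32% lower. Median log2 fold changes were 0.39 for the G1/S and replication set and 0.87 for the mitosis set, beside 0.01 over all genes tested. Cyclin D1 (Ccnd1), which starts the passage through G1 and lies at chr7:144929931-144939831 (GRCm38.p6), ranged over 23.5 to 102 CPM with a median of 67.8 in Gnas KD livers, against 17.4 to 55.0 CPM with a median of 35.6 in Control livers. The groups overlapped, yet 7 Gnas KD libraries were above the highest Control library (log2 fold change 0.96 ± 0.26 (SE), edgeR adjusted p = 0.0089). Mcm6 (chr1:128331575-128359705) ranged over 6.68 to 16.1 CPM with a median of 12.1 in Gnas KD livers, against 3.8 to 9.04 CPM with a median of 4.88 in Control livers. All 10 Gnas KD libraries exceeded the Control median, and its log2 fold change was 1.11 ± 0.21 (SE), edgeR adjusted p = 0.00014. Its partner in the helicase ring Mcm5 (0.76 ± 0.23) and the ribonucleotide reductase subunit Rrm1 (0.31 ± 0.096), which makes deoxynucleotides, completed the 4 called genes of the set (log2 fold change ± SE).

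Proliferation antigen Ki-67 (Mki67, chr7:135689784-135716450), which coats mitotic chromosomes, ranged over 6.85 to 29.9 CPM with a median of 11.7 in Gnas KD livers, against 3.94 to 10.4 CPM with a median of 6.09 in Control livers. Again every Gnas KD library was above the Control median and the ranges overlapped, with 7 libraries above the highest Control library (log2 fold change 1.09 ± 0.33 (SE), edgeR adjusted p = 0.020). Cyclin B1 (Ccnb1, chr13:100778739-100786486), the partner of the mitotic kinase Cdk1, was at 0.688 to 3.15 CPM with a median of 1.30 in Gnas KD livers and at 0.234 to 1.16 CPM with a median of 0.659 in Control livers. For Ccnb1 the log2 fold change was 1.24 ± 0.38 (SE), edgeR adjusted p = 0.018. Cenpe, a kinesin of the kinetochore, had 1.11 to 3.01 CPM with a median of 1.70 in Gnas KD livers, against 0.345 to 1.56 CPM with a median of 0.760 in Control livers. Cenpe had a log2 fold change of 1.05 ± 0.36 (SE), edgeR adjusted p = 0.040. The other called members of the set were the kinases Cdk1, Plk1 and Aurkb, the cyclins Ccna2 and Ccnb2, the transcription factor Foxm1, the anaphase activator Cdc20, the chromosomal passenger Birc5, the centromeric histone Cenpa and the spindle motors Kif11 and Kif20a. Their log2 fold changes lay between 0.52 (Cenpa) and 1.05 (Plk1). Top2a, Aurka, Bub1b and Ube2c were not called. Calls depended on single libraries: without Gnas KD replicate 9, 11 members were called. Without Gnas KD replicate 1 neither Mki67 (log2 fold change 0.91, edgeR adjusted p = 0.057) nor Ccnb1 (1.06, edgeR adjusted p = 0.051) was called, and Cdk1 was lost in 14 and Cenpe in 10 of the 20 removals of 1 library. Markers of stellate cells and fibroblasts moved with the group, 4 of 10 being called higher and none lower. Their sum was 365 to 840 CPM (median 637) in Gnas KD livers, against 309 to 574 CPM (median 416) in Control livers. Cholangiocyte markers were called higher in 2 of 5 tested, with sums of 54.5 to 262 CPM in Gnas KD livers and 28.1 to 103 CPM in Control livers, and no marker of either list was at 0 throughout a group. The part of these cells in the result was not tested.

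**Figure D4:**
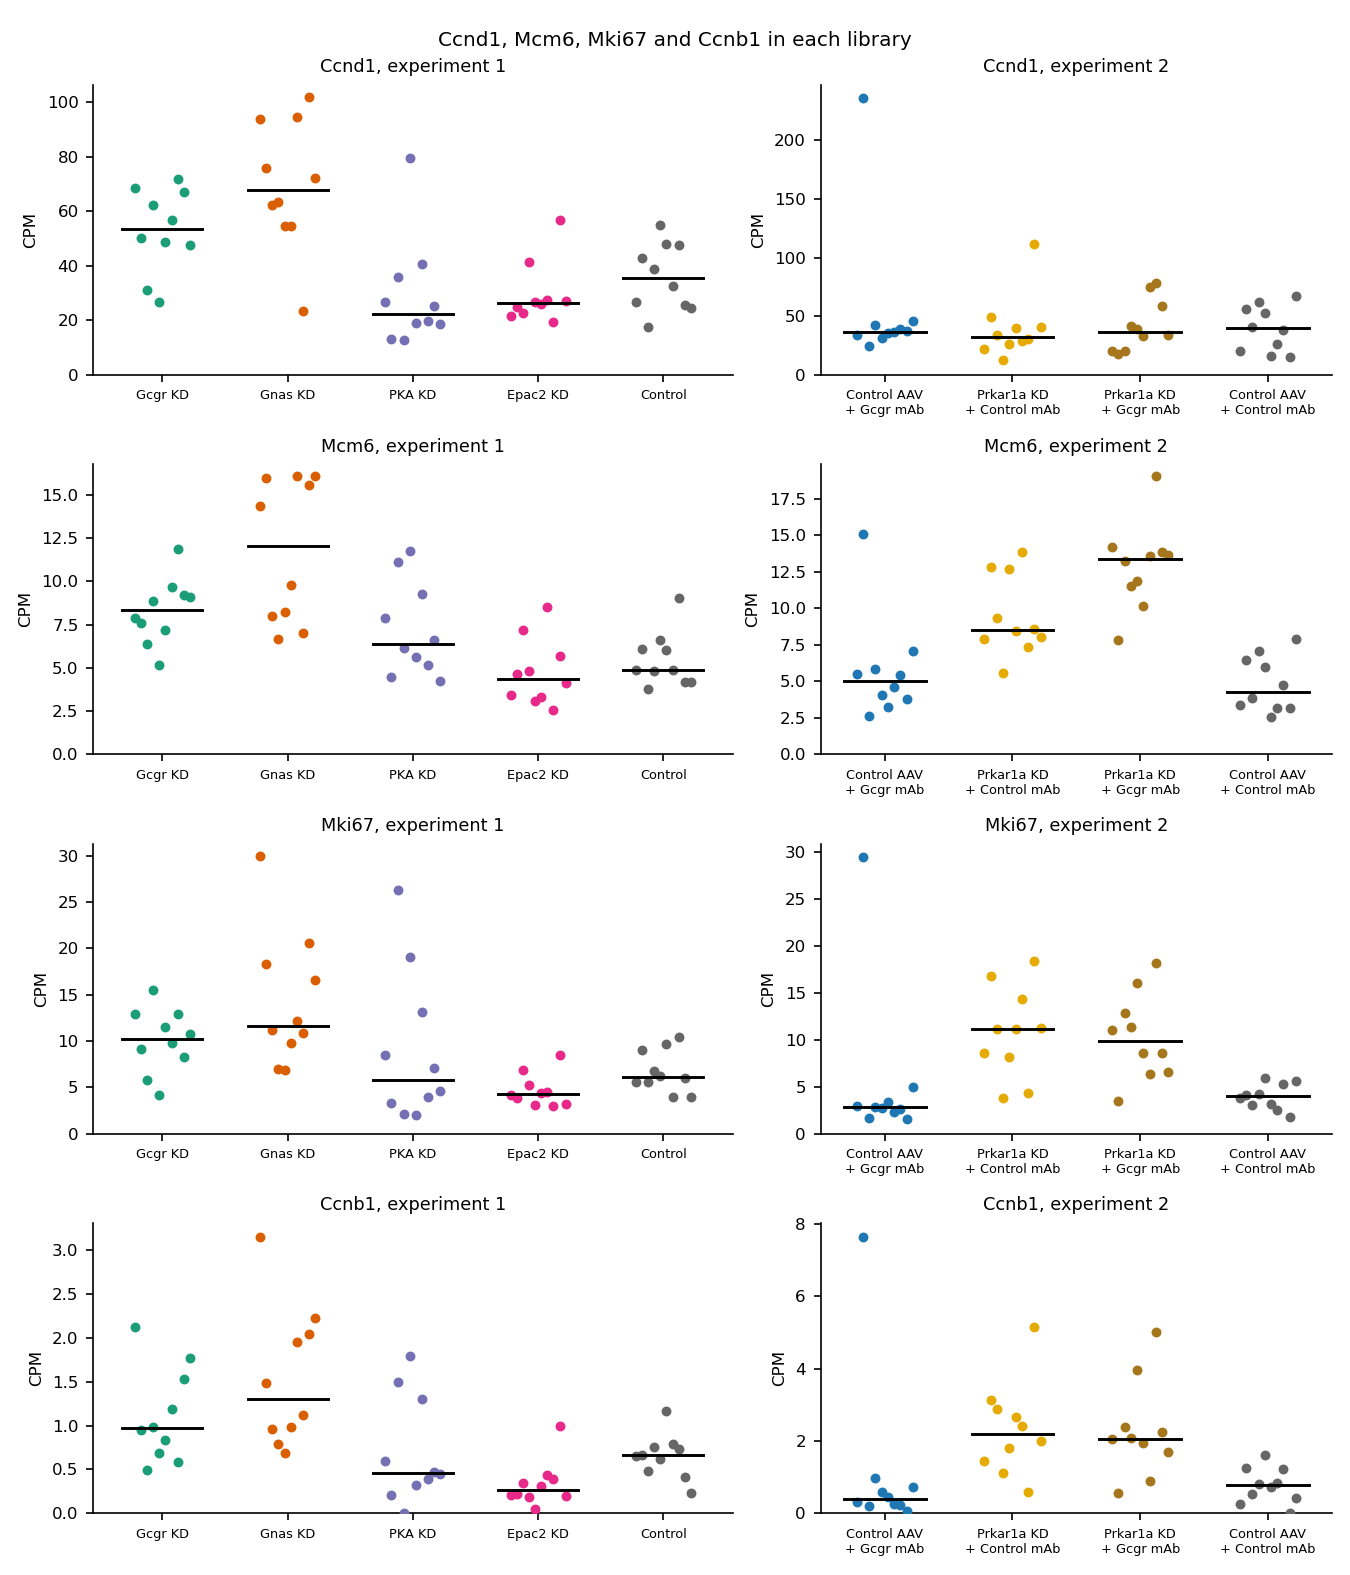
CPM of Ccnd1, Mcm6, Mki67 and Ccnb1 in each library (points) of the 9 groups, with the group median. Mcm6 medians are 12.1 CPM in Gnas KD and 13.4 CPM in Prkar1a KD with Gcgr mAb, against 4.88 and 4.30 CPM in their control groups, and a library of Control AAV with Gcgr mAb reaches 237 CPM for Ccnd1.

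With knockdown of the receptor no member passed the test, while the mitosis genes had positive values throughout. In Gcgr KD livers 0 of 34 members were called higher and 0 lower by edgeR than in Control livers, where 2.9% of all genes were called higher and 4.33% lower. Of the members 10, and 2918 of all genes, had an unadjusted p under 0.05. DESeq2 called 1 member higher, and edgeR fitted with only these groups called 3. All 18 mitosis members had positive log2 fold changes, with a median of 0.56, and the median of the G1/S and replication set was 0.19. Mcm6 had 5.17 to 11.8 CPM with a median of 8.36 in Gcgr KD livers, against 3.8 to 9.04 CPM with a median of 4.88 in Control livers. All 10 Gcgr KD libraries exceeded the Control median. For Mcm6 the log2 fold change was 0.60 ± 0.21 (SE), edgeR adjusted p = 0.067. Ccnd1 was 26.6 to 71.9 CPM with a median of 53.4 in Gcgr KD livers and 17.4 to 55.0 CPM with a median of 35.6 in Control livers, with 5 libraries above the highest Control library. Ccnd1 had a log2 fold change of 0.56 ± 0.26 (SE), edgeR adjusted p = 0.19. Mki67 was 4.20 to 15.5 CPM with a median of 10.3 and Ccnb1 0.498 to 2.12 CPM with a median of 0.970 in Gcgr KD livers. Both overlapped Control, and neither was called (Mki67 0.59 ± 0.33, edgeR adjusted p = 0.31; Ccnb1 0.78 ± 0.38, edgeR adjusted p = 0.22). Without Control replicate 8, 2 members were called higher, and 1 without Gcgr KD replicate 5, Mcm6 being called in both cases.

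Set directly against each other, Gnas KD and Gcgr KD livers had 1 called member, a number near the share of all genes. Mcm7, another subunit of the helicase, was called higher in Gnas KD livers, where it was 15.8 to 25.1 CPM with a median of 19.3, against 14.5 to 18.0 CPM with a median of 16.4 in Gcgr KD livers. For Mcm7 the log2 fold change was 0.24 ± 0.06 (SE), edgeR adjusted p = 0.010. The ranges overlapped, and 6 Gnas KD libraries exceeded the highest Gcgr KD library. Over all genes tested 2.37% were called higher and 3.47% lower in this comparison, and 0 members were called lower. Fitted with only these groups, 0 members were called higher. The remaining members were not called, Mki67 with a log2 fold change of 0.51 ± 0.33, Ccnb1 of 0.46 ± 0.36, Ccnd1 of 0.39 ± 0.26 and Mcm6 of 0.51 ± 0.20 (± SE). Both lists had positive medians, 0.18 for G1/S and replication and 0.34 for mitosis.

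With knockdown of the kinase itself few members were called, in numbers near or below the background. In PKA KD livers 3 members were called higher and 4 lower than in Control livers, where 17.7% of all genes tested were called higher and 14.8% lower. In the G1/S and replication set 3 of 16 were called in each direction, close to those shares, and in the mitosis set 0 of 18 higher and 1 lower. The PKA KD libraries differed among themselves: the mitosis means of the 5 with odd replicate numbers were 0.08 to 1.37 log2 units from the Control mean and those of the 5 with even numbers -1.18 to -0.49, a split seen in the data and given no meaning by the labels. Cyclin E2 (Ccne2), which activates Cdk2 at the entry into S phase, was 0.851 to 1.90 CPM with a median of 1.39 in PKA KD livers, against 0.148 to 0.910 CPM with a median of 0.511 in Control livers. It rose in PKA KD, 9 of the 10 libraries being above the highest Control library (log2 fold change 1.42 ± 0.27 (SE), edgeR adjusted p = 2.8e-05). E2f1, the activating E2F factor, was 4.93 to 10.6 CPM with a median of 7.58 in PKA KD livers and 4.33 to 6.52 CPM with a median of 5.27 in Control livers, with 9 libraries above the Control median. E2f1 had a log2 fold change of 0.49 ± 0.12 (SE), edgeR adjusted p = 0.0016. Rrm1 also rose (log2 fold change 0.28 ± 0.10 (SE), edgeR adjusted p = 0.022).

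Pcna, Mcm2 and Mcm4 were the 3 G1/S and replication members called lower in PKA KD livers, while Mcm3, Mcm5, Mcm6 and Mcm7 were not called. Pcna, the sliding clamp that holds DNA polymerase on its template, was 10.6 to 14.4 CPM with a median of 12.5 in PKA KD livers, against 12.8 to 18.8 CPM with a median of 15.9 in Control livers. All 10 PKA KD libraries lay under the Control median, although the ranges overlapped (log2 fold change -0.35 ± 0.08 (SE), edgeR adjusted p = 0.00059). Mcm2 was 1.13 to 8.17 CPM with a median of 4.39 in PKA KD livers and 5.09 to 8.97 CPM with a median of 6.89 in Control livers. Its log2 fold change was -0.61 ± 0.22 (SE), edgeR adjusted p = 0.026, and 9 PKA KD libraries lay under the Control median. Mcm4 was 3.39 to 6.36 CPM with a median of 4.42 in PKA KD livers and 4.91 to 7.68 CPM with a median of 5.80 in Control livers. For Mcm4 the log2 fold change was -0.40 ± 0.13 (SE), edgeR adjusted p = 0.010. In the mitosis set only Cenpa was called, with a log2 fold change of -0.38 ± 0.15 (± SE), and that call was lost in 10 of 20 removals of 1 library. The Rrm1 call was lost without PKA KD replicate 7, and the Mcm2 and Cenpa calls when only these groups were fitted. Mki67, at 2.04 to 26.3 CPM in PKA KD livers against 3.94 to 10.4 CPM in Control livers, had a log2 fold change of 0.42 ± 0.33 (SE), edgeR adjusted p = 0.36. Ccnd1 was 12.9 to 79.5 CPM with a median of 22.4 in PKA KD livers, Mcm6 4.25 to 11.8 CPM with a median of 6.37 and Ccnb1 0 to 1.79 CPM with a median of 0.458. They overlapped Control and were not called, with log2 fold changes of -0.30 ± 0.26, 0.40 ± 0.21 and 0.12 ± 0.39 (± SE). Medians over the genes' fitted log2 fold changes were -0.06 for the G1/S and replication set and 0.20 for the mitosis set, where the median over libraries of the mitosis mean, given above, was -0.20. The fitted mitosis median was -0.105 without PKA KD replicate 5, when Ccnd1 was called lower (log2 fold change -0.61, edgeR adjusted p = 0.044). Without PKA KD replicate 2 or 6, 2 members were called lower. Cholangiocyte markers were called higher in 2 of 5 tested, with sums of 37.8 to 312 CPM in PKA KD livers and 28.1 to 103 CPM in Control livers. Hepatocyte markers were called lower in 2 of 8. Over all genes 17.7% were called higher and 14.8% lower, and the part of either list was not tested.

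Between Gnas KD and PKA KD livers, members of both sets were higher with knockdown of Gnas, and Ccne2 and E2f1 were lower. Gnas KD livers had 17 members called higher (8 of 16 and 9 of 18) and 2 lower, where 15.6% of all genes were called higher and 18.4% lower. Ccnd1, at 23.5 to 102 CPM with a median of 67.8 in Gnas KD livers and 12.9 to 79.5 CPM with a median of 22.4 in PKA KD livers, exceeded the PKA KD median in every Gnas KD library. Ccnd1 had a log2 fold change of 1.26 ± 0.26 (SE), edgeR adjusted p = 0.00019. Cenpa, which marks centromeres, was 2.75 to 4.49 CPM with a median of 3.69 in Gnas KD livers and 1.4 to 2.86 CPM with a median of 1.71 in PKA KD livers. That difference nearly separated the groups, with 9 Gnas KD libraries above the highest PKA KD library (log2 fold change 0.90 ± 0.14 (SE), edgeR adjusted p = 2.1e-06). Mcm2 (0.99 ± 0.22), Mcm5 (0.85 ± 0.23), Mcm6 (0.71 ± 0.20), Ccnb1 (1.12 ± 0.37) and Ccnb2 (1.0 ± 0.31) were called higher, Ccne2 (-1.0 ± 0.26) and E2f1 (-0.50 ± 0.12) lower (log2 fold change ± SE), and Mki67 was not called (0.67 ± 0.33). Mki67 was called higher without PKA KD replicate 3 or 5. Medians were 0.31 and 0.71 in the G1/S and replication set and the mitosis set, and the number called higher was 26 without PKA KD replicate 3 and 11 when only these groups were fitted. Stellate markers differed here too, 5 of 10 being called higher in Gnas KD livers. Their sums were 365 to 840 CPM in Gnas KD livers and 301 to 475 CPM in PKA KD livers, and their part in the result was not tested.

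In Epac2 KD livers most members had values below Control, and 1 was called lower, a number near the share of all genes. Of 34 members 0 were called higher and 1 lower in Epac2 KD than in Control livers, where 1.82% of all genes were called higher and 2.74% lower. Aurka, the kinase that matures spindle poles, was 0.610 to 1.63 CPM with a median of 0.900 in Epac2 KD livers, against 1.13 to 2.47 CPM with a median of 1.66 in Control livers. Every Epac2 KD library lay under the Control median (log2 fold change -0.88 ± 0.25 (SE), edgeR adjusted p = 0.030), and the call was lost without any one of Epac2 KD replicates 4, 6 and 7 and Control replicates 6 and 8. Without Epac2 KD replicate 9, 2 members were called lower. All 16 G1/S and replication members and 17 of 18 mitosis members had negative log2 fold changes, with medians of -0.17 and -0.53. Of the 34 members 7, and 2255 of all 13574 genes tested, had an unadjusted p under 0.05 by edgeR. Ccnb1 was 0.0512 to 0.99 CPM with a median of 0.266 in Epac2 KD livers, against 0.234 to 1.16 CPM with a median of 0.659 in Control livers, with 9 libraries under the Control median. For Ccnb1 the log2 fold change was -0.92 ± 0.42 (SE), edgeR adjusted p = 0.25. Mki67 was 2.98 to 8.52 CPM with a median of 4.28 in Epac2 KD livers, Ccnd1 19.3 to 56.6 CPM with a median of 26.4 and Mcm6 2.55 to 8.54 CPM with a median of 4.37. Most of these libraries lay under the Control median, 8 for Mki67, 8 for Ccnd1 and 7 for Mcm6, and their log2 fold changes of -0.51 ± 0.34, -0.28 ± 0.26 and -0.21 ± 0.21 (± SE) were not called.

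Gnas KD against Epac2 KD gave the most called members of the 13 comparisons. Of the 34 members 29 were called higher in Gnas KD livers, 11 of 16 in the G1/S and replication set and all 18 in the mitosis set, and 0 lower, where 12% of all genes were called higher and 12.8% lower. No call was lost in any of the 20 removals of 1 library. In 3 members every Gnas KD library was above every Epac2 KD library, which 0.67% of all genes tested also showed. Ccna2 (cyclin A2), one of these, was 1.33 to 3.36 CPM with a median of 2.30 in Gnas KD livers and 0.685 to 1.27 CPM with a median of 0.772 in Epac2 KD livers. Ccna2 had a log2 fold change of 1.51 ± 0.27 (SE), edgeR adjusted p = 3.3e-05. Ccnb2 was 1.46 to 4.66 CPM with a median of 2.31 in Gnas KD livers and 0.432 to 1.45 CPM with a median of 0.662 in Epac2 KD livers. For Ccnb2 the log2 fold change was 1.90 ± 0.33 (SE), edgeR adjusted p = 2.5e-05. Kif20a, a kinesin needed for cytokinesis, was 2.96 to 7.72 CPM with a median of 4.75 in Gnas KD livers and 0.648 to 2.93 CPM with a median of 1.36 in Epac2 KD livers. Kif20a had a log2 fold change of 1.71 ± 0.28 (SE), edgeR adjusted p = 6.0e-06. These 3 separated the groups completely, while the other members overlapped in at least 1 library.

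In the same comparison Cdc20, whose promoter is printed above, was 1.89 to 7.36 CPM with a median of 4.27 in Gnas KD livers and 0.685 to 2.12 CPM with a median of 0.958 in Epac2 KD livers. For Cdc20 the log2 fold change was 1.94 ± 0.35 (SE), edgeR adjusted p = 4.1e-05. Cdc6, at 0.184 to 1.39 CPM with a median of 0.795 in Gnas KD livers and 0 to 0.520 CPM with a median of 0.198 in Epac2 KD livers, had a log2 fold change of 1.74 ± 0.47 (SE), edgeR adjusted p = 0.0044. Ccnb1 had 2.16 ± 0.41, Mki67 1.60 ± 0.34, Mcm6 1.32 ± 0.21 and Ccnd1 1.24 ± 0.26 (log2 fold change ± SE, all called). The medians were 0.53 for G1/S and replication and 1.4 for mitosis. The 5 members not called were Ccnd2, E2f1, Mcm2, Pcna and Tyms, all in the G1/S and replication set. Stellate markers were called higher in 5 of 10, with sums of 365 to 840 CPM in Gnas KD livers and 311 to 555 CPM in Epac2 KD livers. Neutrophil and monocyte markers were called higher in 2 of the 4 tested (Ly6c2 and Ccr2), with sums over the list of 4.89 to 12.1 CPM in Gnas KD livers and 4.10 to 10.8 CPM in Epac2 KD livers. The part of either list in the result was not tested.

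In experiment 2 the antibody against the receptor, given with Control AAV, gave few called members, near or below the shares of all genes. With Gcgr mAb 1 member was called higher and 1 lower than with Control mAb, where 2.92% of all genes were called higher and 5.27% lower. Ccne2 was 1.16 to 3.13 CPM with a median of 2.30 with Gcgr mAb, against 0.986 to 2.02 CPM with a median of 1.22 with Control mAb, and 6 Gcgr mAb libraries exceeded the highest Control mAb library. Ccne2 had a log2 fold change of 0.67 ± 0.19 (SE), edgeR adjusted p = 0.020. E2f1 was 2.49 to 5.14 CPM with a median of 3.8 with Gcgr mAb and 2.6 to 7.21 CPM with a median of 5.61 with Control mAb, and all 10 Gcgr mAb libraries lay under the Control mAb median. For E2f1 the log2 fold change was -0.47 ± 0.15 (SE), edgeR adjusted p = 0.039. The E2f1 call was lost in 12 of 20 removals of 1 library, and fitted with only these groups 0 members were called in either direction. Without Control AAV + Gcgr mAb replicate 2, 3 members were called lower.

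Mki67 was 1.59 to 29.5 CPM with a median of 2.81 with Gcgr mAb, against 1.75 to 5.98 CPM with a median of 4.0 with Control mAb, the highest value being the library that stands apart. Its log2 fold change was 0.48 ± 0.42 with that library and -0.48 without it. The same values were 0.59 ± 0.57 and -0.86 for Ccnb1, 0.51 ± 0.39 and -0.12 for Ccnd1, and 0.24 ± 0.24 and -0.05 for Mcm6, none of them called. Ccnb1 was 0.0691 to 7.64 CPM with a median of 0.384 with Gcgr mAb and 0 to 1.61 CPM with a median of 0.777 with Control mAb. Ccnd1 was 24.7 to 237 CPM with a median of 36.8 with Gcgr mAb and 15.5 to 67.3 CPM with a median of 39.6 with Control mAb, again with the highest value in that library. Mcm6 was 2.6 to 15.1 CPM with a median of 5.02 with Gcgr mAb and 2.54 to 7.91 CPM with a median of 4.30 with Control mAb. The median over the mitosis set was 0.36 with Control AAV + Gcgr mAb replicate 2 and -0.42 without it, and over the G1/S and replication set -0.09 and -0.15. Without that library 1 member was called higher (Ccne2) and 3 lower (E2f1, Mcm2 and Mcm7).

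Members of both sets rose in Prkar1a KD livers. In Prkar1a KD livers with Control mAb 21 of 35 members were called higher and 0 lower than with Control AAV and Control mAb, 7 of 16 in the G1/S and replication set and 14 of 19 in the mitosis set, where 29.3% of all genes were called higher and 26.9% lower. Without Prkar1a KD + Control mAb replicate 2, 9 or 10, 1 member was called lower. In 3 members every Prkar1a KD library was above every control library, which 7.8% of all genes also showed. Rrm1 was 16.6 to 26.7 CPM with a median of 21.3 in Prkar1a KD livers, against 8.68 to 12.7 CPM with a median of 9.81 with Control AAV. Rrm1 had a log2 fold change of 1.09 ± 0.09 (SE), edgeR adjusted p = 3.1e-13. Pcna was 38.1 to 46.1 CPM with a median of 41.1 in Prkar1a KD livers and 24.8 to 28.6 CPM with a median of 27.9 with Control AAV. For Pcna the log2 fold change was 0.60 ± 0.05 (SE), edgeR adjusted p = 1.4e-12. Mcm7 was 15 to 20.5 CPM with a median of 17.8 in Prkar1a KD livers and 8.48 to 14.1 CPM with a median of 12.4 with Control AAV. Mcm7 had a log2 fold change of 0.59 ± 0.09 (SE), edgeR adjusted p = 1.6e-06. For these 3 members the groups did not meet, a number near the share of all genes that did not.

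Mcm6 was 5.6 to 13.9 CPM with a median of 8.5 in Prkar1a KD livers with Control mAb, against 2.54 to 7.91 CPM with a median of 4.30 with Control AAV, with 7 libraries above the highest control library. For Mcm6 the log2 fold change was 0.96 ± 0.23 (SE), edgeR adjusted p = 0.00060. Mcm5 (0.83 ± 0.23), Mcm2 (0.66 ± 0.18) and the thymidylate synthase gene Tyms (0.32 ± 0.068) were the remaining called genes of the set (log2 fold change ± SE). Cyclin D1 was not among them: Ccnd1 was 13.0 to 112 CPM with a median of 31.9 in Prkar1a KD livers and 15.5 to 67.3 CPM with a median of 39.6 with Control AAV. Ccnd1 had a log2 fold change of 0.00 ± 0.39 (SE), edgeR adjusted p = 1.0. Only 4 of the 10 Prkar1a KD libraries lay above the control median for that gene.

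Plk1, the kinase that drives entry into mitosis and spindle assembly, was 0.386 to 2.82 CPM with a median of 1.51 in Prkar1a KD livers with Control mAb and 0.129 to 0.837 CPM with a median of 0.417 with Control AAV. For Plk1 the log2 fold change was 1.62 ± 0.48 (SE), edgeR adjusted p = 0.0041. Cdk1 was 1.72 to 6.15 CPM with a median of 3.61 in Prkar1a KD livers and 0.453 to 2.15 CPM with a median of 1.32 with Control AAV, every Prkar1a KD library being above the control median. Cdk1 had a log2 fold change of 1.45 ± 0.33 (SE), edgeR adjusted p = 0.00030. Mki67 was 3.82 to 18.3 CPM with a median of 11.1 in Prkar1a KD livers and 1.75 to 5.98 CPM with a median of 4.0 with Control AAV. For Mki67 the log2 fold change was 1.44 ± 0.41 (SE), edgeR adjusted p = 0.0031. In all 3 the ranges overlapped, with 8 libraries above the highest control library for each. Ccnb1, at 0.578 to 5.15 CPM with a median of 2.20 in Prkar1a KD livers and 0 to 1.61 CPM with a median of 0.777 with Control AAV, was called as well. Ccnb1 had a log2 fold change of 1.56 ± 0.55 (SE), edgeR adjusted p = 0.015. Medians were 0.32 for G1/S and replication and 1.13 for mitosis, beside 0.02 over all genes. The mitosis members not called were Ccnb2, Aurkb, Cdc20, Birc5 and Cenpa, and the call of Ube2c was lost in 10 of 20 removals of 1 library. Hepatocyte markers moved with the knockdown, 6 of 8 being called lower and 1 higher. Their sum was 41616 to 58772 CPM (median 47665) in Prkar1a KD livers, against 89706 to 101351 CPM (median 96681) with Control AAV. Over all genes 26.9% were called lower and 29.3% higher. Stellate cell markers were called lower in 3 of 10 and endothelial markers in 2 of 9, near the share called lower. Neutrophil and monocyte markers were called higher in 2 of 5 tested. The last had sums of 4.33 to 23.7 CPM in Prkar1a KD livers and 4.05 to 15 CPM with Control AAV, and the neutrophil gene Elane was at 0 in every Prkar1a KD library. The part of these markers in the result was not tested.

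With the antibody added, members of both sets were again higher in Prkar1a KD livers. In Prkar1a KD livers with Gcgr mAb 26 members were called higher and 0 lower than with Control AAV and Control mAb (10 of 16 and 16 of 19), where 26% of all genes were called higher and 24.2% lower. Mcm5, Mcm7, Pcna and Rrm1, 4 members, were higher in every Prkar1a KD library than in every control library, as were 5.31% of all genes. Mcm5 was 4.48 to 10.7 CPM with a median of 6.75 in Prkar1a KD livers with Gcgr mAb, against 1.62 to 4.37 CPM with a median of 2.62 with Control AAV and Control mAb. For Mcm5 the log2 fold change was 1.30 ± 0.23 (SE), edgeR adjusted p = 7.4e-06. Mcm6 was 7.81 to 19.1 CPM with a median of 13.4 in Prkar1a KD livers with Gcgr mAb, against 2.54 to 7.91 CPM with a median of 4.30 with Control AAV and Control mAb. Of the 10 libraries 9 were above the highest control library. Mcm6 had a log2 fold change of 1.41 ± 0.23 (SE), edgeR adjusted p = 3.4e-06. Cdc6 was 0.115 to 1.5 CPM with a median of 0.729 in Prkar1a KD livers with Gcgr mAb, against 0.0667 to 0.630 CPM with a median of 0.253 with Control AAV and Control mAb. For Cdc6 the log2 fold change was 1.49 ± 0.35 (SE), edgeR adjusted p = 0.00056.

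Among the mitosis genes of that comparison, Plk1 (1.61 ± 0.48), Ccnb1 (1.57 ± 0.55), Cdk1 (1.46 ± 0.33) and Mki67 (1.39 ± 0.41) were called higher (log2 fold change ± SE), and Ccnd1 was not (0.09 ± 0.39). Mki67 was 3.44 to 18.2 CPM with a median of 9.82 in Prkar1a KD livers with Gcgr mAb, with 9 libraries above the highest control library. Ccnb1 was 0.574 to 5.02 CPM with a median of 2.06 and Ccnd1 18.1 to 78 CPM with a median of 36.3 in the same livers, 8 and 2 libraries lying above the highest control library. Medians were 0.57 and 1.19 over the G1/S and replication set and the mitosis set. Rrm2, the other subunit of ribonucleotide reductase, was called here (log2 fold change 0.51 ± 0.19 (SE), edgeR adjusted p = 0.027), a call lost in 4 of 20 removals of 1 library, and Cenpe in 12. Hepatocyte marker sums were 36916 to 70640 CPM in Prkar1a KD livers with Gcgr mAb and 89706 to 101351 CPM with Control AAV and Control mAb, 6 of 8 markers being called lower. Of other markers 4 of 9 endothelial and 4 of 10 stellate cell ones were called lower too, beside 24.2% of all genes. The part of these markers was not tested.

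Within the antibody-treated livers, knockdown of Prkar1a gave 21 members called higher (12 of 16 and 9 of 19) and 1 lower, where 26.5% of all genes were called higher and 26.6% lower. Pcna and Rrm1, 2 members, were higher in every Prkar1a KD library than in every library set against them. That number is near the share of all genes that were so, which was 6%. Mcm2 was 5.97 to 13.3 CPM with a median of 10.1 in Prkar1a KD livers with Gcgr mAb and 1.98 to 8.42 CPM with a median of 3.40 with Control AAV and Gcgr mAb. Mcm2 had a log2 fold change of 1.4 ± 0.18 (SE), edgeR adjusted p = 3.7e-08. Rrm1 was 18.0 to 24.9 CPM with a median of 22.0 in Prkar1a KD livers with Gcgr mAb and 6.09 to 11.2 CPM with a median of 9.46 with Control AAV and Gcgr mAb. For Rrm1 the log2 fold change was 1.24 ± 0.09 (SE), edgeR adjusted p = 7.6e-15. Mcm5 (1.22 ± 0.22), Mcm6 (1.17 ± 0.23), Aurka (1.17 ± 0.32), Cdk1 (1.11 ± 0.32) and Aurkb (1.35 ± 0.39), the kinase of the chromosomal passenger complex, were called higher, and the D-type cyclin Ccnd2 (-0.30 ± 0.11) lower (log2 fold change ± SE). Ccnd1 was not called (-0.42 ± 0.39), nor was it without Control AAV + Gcgr mAb replicate 2 (0.20).

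The library that stands apart belongs to the group set against Prkar1a KD here. With it, 9 mitosis members were called, the median over the mitosis set was 0.90, and Mki67 (0.90 ± 0.40, edgeR adjusted p = 0.055) and Ccnb1 (0.98 ± 0.52, edgeR adjusted p = 0.11) were not called. Without Control AAV + Gcgr mAb replicate 2, 30 members were called higher and 0 lower, the medians were 0.76 and 1.70 over the G1/S and replication set and the mitosis set, and Mki67 (1.86) and Ccnb1 (2.42) were called. Mki67 was also called without Prkar1a KD + Gcgr mAb replicate 2, 7 or 10. The Ccnd2 call was lost without that library or without Prkar1a KD + Gcgr mAb replicate 10. With Control AAV + Gcgr mAb replicate 2 included, hepatocyte markers were called lower in 6 of 8 and endothelial markers in 8 of 9. In the same fit Kupffer cell markers were called lower in 8 of 11 and stellate cell markers in 6 of 10, beside 26.6% of all genes. The first 3 sums were 36916 to 70640, 93.9 to 179 and 132 to 351 CPM in Prkar1a KD livers with Gcgr mAb, against 75876 to 107543, 159 to 264 and 170 to 680 CPM with Control AAV and Gcgr mAb, and their part in the result was not tested.

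Among livers with Prkar1a KD the antibody made no difference that was called. With Gcgr mAb 0 members were higher and 0 lower than with Control mAb by edgeR, as were 0% and 0% of all genes, and 5 members and 846 genes had an unadjusted p under 0.05. Log2 fold changes were 0.45 ± 0.22 for Mcm6, 0.09 ± 0.39 for Ccnd1, -0.06 ± 0.39 for Mki67 and 0.00 ± 0.49 for Ccnb1 (± SE). Mcm6 was 7.81 to 19.1 CPM with a median of 13.4 with Gcgr mAb and 5.6 to 13.9 CPM with a median of 8.5 with Control mAb, 9 Gcgr mAb libraries lying above the Control mAb median. The G1/S and replication set had a median of 0.21 and the mitosis set of 0.05.

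The interaction asks whether the difference made by Prkar1a KD is larger with Gcgr mAb than with Control mAb. It was called positive in 2 members and negative in 0, where 2.74% of all genes were called positive and 1.34% negative. E2f1 (log2 0.70 ± 0.21 (SE), edgeR adjusted p = 0.041) had a log2 fold change with Prkar1a KD of 0.57 in livers with Gcgr mAb and -0.14 in livers with Control mAb. Mcm4 (log2 0.73 ± 0.20 (SE), edgeR adjusted p = 0.034) had 0.82 with Gcgr mAb and 0.10 with Control mAb. The E2f1 call was lost in 22 and the Mcm4 call in 5 of the 40 removals of 1 library. Mki67 (-0.54 ± 0.57), Ccnb1 (-0.58 ± 0.76), Mcm6 (0.21 ± 0.33) and Ccnd1 (-0.43 ± 0.55) were not called (log2 ± SE). Without Control AAV + Gcgr mAb replicate 2 the same values were 0.43, 0.87, 0.50 and 0.21, again not called. The medians were 0.29 over the G1/S and replication set and -0.24 over the mitosis set, but 0.48 and 0.46 without Control AAV + Gcgr mAb replicate 2, when 4 members were called (E2f1, Mcm2, Mcm3 and Mcm4). The number called positive moved in 24 of the 40 removals of 1 library. Without Control AAV + Control mAb replicate 2 or 4, Control AAV + Gcgr mAb replicate 7 or Prkar1a KD + Gcgr mAb replicate 8, 0 members were called positive, and 1 was called negative without Prkar1a KD + Control mAb replicate 3 or Prkar1a KD + Gcgr mAb replicate 7.

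Set against each other within a library, the mitosis mean exceeded the G1/S and replication mean in 9 of 10 Gcgr KD, 10 of 10 Gnas KD, 4 of 10 PKA KD and 1 of 10 Epac2 KD libraries, against 4 of 10 Control libraries. The median difference was 0.24, 0.46, -0.13 and -0.28 log2 units in those knockdown groups and -0.09 in Control livers. In experiment 2 the mitosis mean was the higher of the pair in 2 of 10 libraries of Control AAV with Gcgr mAb, 9 of 10 of Prkar1a KD with Control mAb and 8 of 10 of Prkar1a KD with Gcgr mAb, against 5 of 10 of Control AAV with Control mAb. The median differences there were -0.20, 0.77 and 0.58, against 0.04. These means are descriptions over the members that passed the filter.

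**Figure D5:**
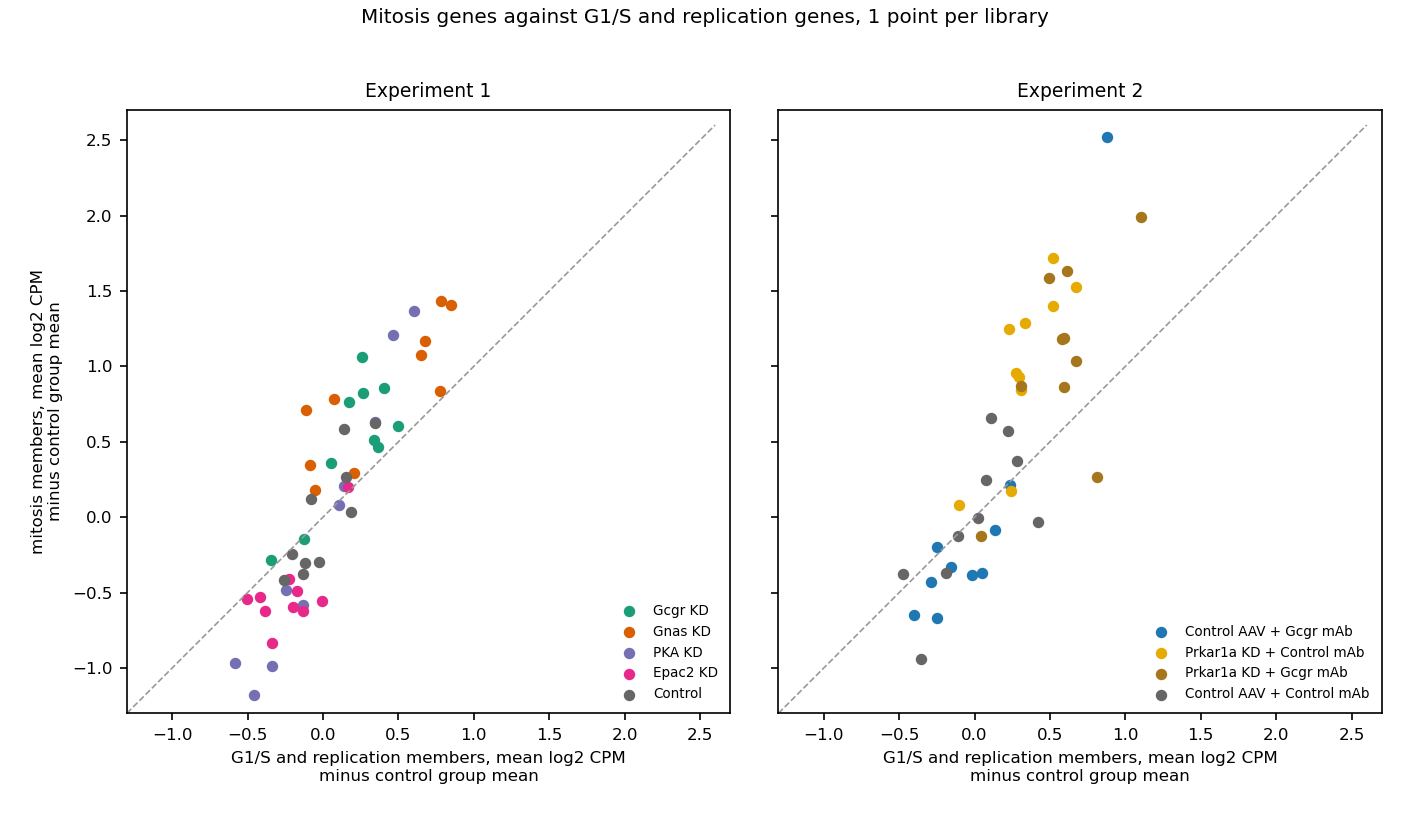
Mean log2 CPM over the mitosis genes against that over the G1/S and replication genes, each minus the mean of the control group, 1 point per library and 1 panel per experiment, with a dashed line where the means are equal. All 10 Gnas KD points and 9 of 10 points of Prkar1a KD with Control mAb lie above the line, and 9 of 10 Epac2 KD points lie below it.

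The calls made by Gnas KD and by Prkar1a KD with Control mAb, in experiments that share no library, met in 12 members, 66.7% of the 18 called with Gnas KD and 57.1% of the 21 called with Prkar1a KD. With Prkar1a KD 21 of all 35 members were called, so the share of the Gnas KD calls that met is near the share of members called in any case, and whether the overlap exceeds that was not tested. In the mitosis set 9 were shared, 64.3% of the 14 called in each. In the G1/S and replication set 3 were shared, of 4 called with Gnas KD and 7 with Prkar1a KD. Called with Gnas KD alone were Ccnd1, Ccnb2, Aurkb, Cdc20, Birc5 and Cenpa, and with Prkar1a KD alone Mcm2, Mcm7, Pcna, Tyms, Top2a, Aurka, Bub1, Bub1b and Ube2c. Whether a gene differs between the experiments was not tested, and Bub1 was tested in experiment 2 only.

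Counted over the 4 comparisons with Control and the 3 with Control AAV and Control mAb, which share their control libraries, 11 members were called higher in 3 of them and none lower in any, 1 (Rrm1) was called higher in 4, and 3 (Ccnd2, Ccne1 and Mcm3) were called in none of these 7. Both directions were found in 6 members: E2f1, Mcm4, Aurka, Cenpa, Mcm2 and Pcna. Ccne1, the other cyclin E gene, had medians of 0.653, 1.01, 0.937 and 0.412 CPM in Gcgr, Gnas, PKA and Epac2 KD livers, against 0.739 CPM in Control livers. Mcm3, another helicase subunit, had medians of 7.87, 9.27, 5.32 and 5.80 CPM in those knockdown livers, against 6.75 CPM in Control livers. Ccnd2 had medians between 11 and 13.5 CPM over the 5 groups of experiment 1.

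Top2a, the topoisomerase that untangles chromosomes, was 2.33 to 8.57 CPM with a median of 4.97 in Prkar1a KD livers with Control mAb, against 1.17 to 3.47 CPM with a median of 2.41 with Control AAV, with 8 libraries above the highest control library. Top2a had a log2 fold change of 1.30 ± 0.32 (SE), edgeR adjusted p = 0.00066. Foxm1, which activates genes of the passage from G2 into mitosis, was 1.30 to 3.85 CPM with a median of 2.89 in Gnas KD livers, against 0.945 to 2.29 CPM with a median of 1.54 in Control livers. For Foxm1 the log2 fold change was 0.87 ± 0.24 (SE), edgeR adjusted p = 0.0099. In both cases most libraries of the knockdown group stood above the control range.

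Kif11, a motor that pushes spindle poles apart, was 1.38 to 2.77 CPM with a median of 1.79 in Gnas KD livers and 0.531 to 1.85 CPM with a median of 1.16 in Control livers. Every Gnas KD library was above the Control median for Kif11. Kif11 had a log2 fold change of 0.68 ± 0.21 (SE), edgeR adjusted p = 0.020. Bub1, tested in experiment 2 alone, was 0.303 to 1.35 CPM with a median of 0.602 in Prkar1a KD livers with Control mAb, against 0.0647 to 0.658 CPM with a median of 0.196 with Control AAV. For Bub1 the log2 fold change was 1.35 ± 0.45 (SE), edgeR adjusted p = 0.0096. The checkpoint kinase Bub1b was 0.758 to 3.09 CPM with a median of 1.5 in Prkar1a KD livers and 0.453 to 1.70 CPM with a median of 0.790 with Control AAV. Bub1b had a log2 fold change of 0.91 ± 0.33 (SE), edgeR adjusted p = 0.016. These groups overlapped, with 5 and 3 Prkar1a KD libraries above the control range for Bub1 and Bub1b. Ube2c, the ubiquitin carrier of the anaphase-promoting complex, was 0.900 to 4.42 CPM with a median of 2.75 in Prkar1a KD livers and 0.388 to 2.33 CPM with a median of 1.04 with Control AAV. For Ube2c the log2 fold change was 0.98 ± 0.40 (SE), edgeR adjusted p = 0.035. Birc5 (survivin) was 1.02 to 4.11 CPM with a median of 2.38 in Gnas KD livers and 0.886 to 2.33 CPM with a median of 1.34 in Control livers, with 9 Gnas KD libraries above the Control median. Birc5 had a log2 fold change of 0.75 ± 0.24 (SE), edgeR adjusted p = 0.025.

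Other genes of replication and mitosis, from lists chosen by function, were counted beside the members. Their counts are read against the shares of all genes called higher and lower, 2.9% and 4.33% in Gcgr KD, 6.83% and 8.32% in Gnas KD, 17.7% and 14.8% in PKA KD and 1.82% and 2.74% in Epac2 KD livers. In Prkar1a KD livers the shares were 29.3% and 26.9% with Control mAb, and 26% and 24.2% with Gcgr mAb. Of 43 further mitosis genes tested, 16 were called higher and 1 lower in Gnas KD livers, 2 and 2 in PKA KD livers, and 0 and 0 in both Gcgr KD and Epac2 KD livers, each against Control. Named by the size of their change in Gnas KD livers, the spindle protein genes Ckap2 (1.36 ± 0.38) and Dlgap5 (1.23 ± 0.35) and the kinetochore gene Nuf2 (1.27 ± 0.37) were called higher (log2 fold change ± SE). The securin gene Pttg1, which guards chromosome cohesion, was the one called lower. It was 14.9 to 19.6 CPM with a median of 16.6 in Gnas KD livers, against 16.9 to 24.1 CPM with a median of 21.6 in Control livers. For Pttg1 the log2 fold change was -0.29 ± 0.07 (SE), edgeR adjusted p = 0.0050. In experiment 2, 39 of these genes were tested, and 23 were called higher and 1 lower in Prkar1a KD livers with Control mAb than with Control AAV. With Gcgr mAb the counts were 21 and 1, against the same control. Pttg1 was again the one called lower (-0.37 ± 0.076 and -0.47 ± 0.077). Called higher were Prc1 (1.81 ± 0.41 and 1.79 ± 0.41), which bundles the central spindle, and the checkpoint kinase gene Ttk (1.74 ± 0.41 and 1.83 ± 0.41) (log2 fold change ± SE, with Control mAb and with Gcgr mAb).

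Of 39 further replication genes tested, 1 was called higher and 1 lower in Gcgr KD livers, 6 and 2 in Gnas KD livers, 2 and 6 in PKA KD livers and 0 and 0 in Epac2 KD livers, each against Control. The 6 called lower in PKA KD livers are close to the share of all genes. In Gcgr KD livers the single-strand binding protein gene Rpa1 was called higher (log2 fold change 0.22 ± 0.07 (SE), edgeR adjusted p = 0.034). The clamp loader subunit gene Rfc5 was 3.49 to 6.33 CPM with a median of 4.54 in Gcgr KD livers, against 6.46 to 8.30 CPM with a median of 7.01 in Control livers, and the groups did not overlap. For Rfc5 the log2 fold change was -0.58 ± 0.09 (SE), edgeR adjusted p = 1.2e-05. In Gnas KD livers Uhrf1, which carries DNA methylation through replication, was 1.26 to 7.32 CPM with a median of 3.35, against 0.903 to 2.81 CPM with a median of 1.32 in Control livers. Uhrf1 had a log2 fold change of 1.21 ± 0.31 (SE), edgeR adjusted p = 0.0044. PKA KD livers had the polymerase delta subunit Pold1 (-0.81 ± 0.14), the flap endonuclease Fen1 (-0.47 ± 0.15) and the histone mRNA binding protein Slbp (-0.46 ± 0.076) called lower (log2 fold change ± SE). In Prkar1a KD livers 14 were called higher and 4 lower with Control mAb, and 19 and 3 with Gcgr mAb, both against Control AAV with Control mAb, the first being near the share of all genes called higher. The primase subunit Prim1 was 7.04 to 10.7 CPM with a median of 8.97 in Prkar1a KD livers with Control mAb, against 1.55 to 4.20 CPM with a median of 2.68 with Control AAV, and the groups did not overlap. For Prim1 the log2 fold change was 1.72 ± 0.14 (SE), edgeR adjusted p = 8.3e-14. Pold2, another subunit of polymerase delta, was called lower (-0.70 ± 0.087, log2 fold change ± SE).

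Among 5 CDK inhibitors tested, Cdkn1a, the p21 gene that blocks cyclin-dependent kinases, was 14 to 92.3 CPM with a median of 37.2 in PKA KD livers. It was 13.8 to 72.0 CPM with a median of 35 in Epac2 KD livers, against 8.22 to 34.5 CPM with a median of 17.5 in Control livers. It was called higher in PKA KD livers (log2 fold change 1.06 ± 0.31 (SE), edgeR adjusted p = 0.0061). It was also called in Epac2 KD livers (log2 fold change 1.02 ± 0.31 (SE), edgeR adjusted p = 0.043). In Gnas KD livers 0 of the 5 were called. Cdkn2c was called higher in PKA KD livers too (0.55 ± 0.17, log2 fold change ± SE). In Prkar1a KD livers with Control mAb Cdkn2c was called higher (0.83 ± 0.18) and Cdkn1b lower (-0.25 ± 0.056). Skp2, which targets CDK inhibitors for degradation, was 0.902 to 1.41 CPM with a median of 1.12 in Epac2 KD livers, against 1.28 to 2.63 CPM with a median of 1.89 in Control livers. Skp2 had a log2 fold change of -0.68 ± 0.13 (SE), edgeR adjusted p = 0.00047. It was called higher in Gnas KD livers (0.37 ± 0.13), in PKA KD livers (0.61 ± 0.12) and in Prkar1a KD livers with Control mAb (0.52 ± 0.14, log2 fold change ± SE). Of the 13 tested genes of its list (other cyclins, kinases and phosphatases), 1 was called higher and 1 lower in Gnas KD livers. In PKA KD livers 1 and 4 were called, and in Prkar1a KD livers with Control mAb 4 and 3. Cdk2 was called lower in Gcgr KD (-0.25 ± 0.079), Gnas KD (-0.25 ± 0.079) and PKA KD livers (-0.48 ± 0.080). Cdk6 was called lower in PKA KD livers (-0.51 ± 0.17) and in Prkar1a KD livers with Control mAb (-0.63 ± 0.18).

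Cyclin D3 (Ccnd3) was 35.7 to 62.2 CPM with a median of 43.8 in Epac2 KD livers, against 27.3 to 34.8 CPM with a median of 30.7 in Control livers, and the groups did not overlap. For Ccnd3 the log2 fold change was 0.55 ± 0.07 (SE), edgeR adjusted p = 4.6e-07. In Prkar1a KD livers with Control mAb it was 33.2 to 52.8 CPM with a median of 46.2, against 18.3 to 31.0 CPM with a median of 22.0 with Control AAV, again with no overlap. Ccnd3 had a log2 fold change of 0.97 ± 0.10 (SE), edgeR adjusted p = 9.5e-11. In PKA KD livers it was called lower (-0.32 ± 0.075, log2 fold change ± SE). Wee1, which holds Cdk1 inactive before mitosis, was 1.38 to 5.40 CPM with a median of 1.95 in Prkar1a KD livers with Control mAb. It was 1.85 to 11.8 CPM with a median of 3.55 with Prkar1a KD and Gcgr mAb, against 5.02 to 20.1 CPM with a median of 10.6 with Control AAV and Control mAb. The ranges met in a few libraries, and Wee1 fell in both Prkar1a KD groups (log2 fold change -2.18 ± 0.34 with Control mAb and -1.16 ± 0.32 with Gcgr mAb).

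Of the E2F, pocket protein and MuvB regulators, 2 of 17 were called higher in Gnas KD livers (Rbl1 and E2f5) and 9 of 16 higher and 3 lower in Prkar1a KD livers with Control mAb. E2f8, a repressing E2F factor, was 3.90 to 15.3 CPM with a median of 9.91 in Control AAV livers with Gcgr mAb. It was 1.0 to 2.51 CPM with a median of 1.79 in Prkar1a KD livers with Control mAb, against 1.58 to 6.74 CPM with a median of 3.52 with Control AAV and Control mAb. It rose with the antibody (log2 fold change 1.34 ± 0.25 (SE), edgeR adjusted p = 0.00032) and fell with Prkar1a KD (log2 fold change -1.12 ± 0.27 (SE), edgeR adjusted p = 0.00049). B-Myb (Mybl2) rose in Prkar1a KD livers with Control mAb (log2 fold change 0.74 ± 0.25 (SE), edgeR adjusted p = 0.010). Of the growth signals, Ereg, a ligand of the EGF receptor, was called higher in Gnas KD livers (1.44 ± 0.36) and in Gcgr KD livers (1.14 ± 0.37), at under 1 CPM in every library of those groups (log2 fold change ± SE). Tgfa, of the same list, was called higher in Gnas KD livers (0.37 ± 0.072) but lower in Gcgr KD livers (-0.48 ± 0.073). Myc, which drives growth and entry into the cycle, was 21.4 to 36.3 CPM with a median of 25.9 in Prkar1a KD livers with Control mAb, against 1.09 to 16.1 CPM with a median of 2.86 with Control AAV, and the groups did not overlap. For Myc the log2 fold change was 2.59 ± 0.50 (SE), edgeR adjusted p = 3.8e-05. Egfr (1.4 ± 0.27) and Igfbp1 (3.04 ± 0.40) were called higher too. Ccn1 (-1.22 ± 0.18), Gadd45a (-1.08 ± 0.24) and Met, the receptor for hepatocyte growth factor (-0.62 ± 0.10), were called lower (log2 fold change ± SE). Of the 13 growth signals tested there, 5 were called higher and 3 lower, beside 29.3% and 26.9% of all genes.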

How the data were processed

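RNA-seq of total RNA from mouse liver was counted per gene in 2 tables, 1 for each experiment, which together hold 90 libraries. Values are expected counts (estimated counts per gene) as the authors deposited them, with 8.69% and 8.55% of values fractional in experiments 1 and 2. Reads were demultiplexed with bcl2fastq 2.17, checked with FastQC and set on GRCm38, per the submitters' processing notes; the sources used here name no aligner or counter. Libraries were strand-specific and made from bead-selected mRNA, per the labels' protocols.

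From these, counts were rounded to whole numbers and scaled by TMM. Genes that passed edgeR's filterByExpr were fitted with its quasi-likelihood model (edgeR 4.0.16, R 4.3.3), over all groups of an experiment and each experiment apart, and p-values were adjusted by Benjamini-Hochberg over all genes tested, with calls under 0.05. CPM of the 2 experiments were not compared. Set means used log2 CPM with a prior count of 2. The tests were also run on simulated data with known changes. DESeq2 1.42.0, limma 3.58.1 (voom), RLE scaling, no filter, the groups compared alone, a block for replicate number and removal of each library in turn were alternatives. No library pair of a group agreed within sampling noise, the lowest chi-square per degree of freedom being 14.11 in experiment 1 and 7.52 in experiment 2. Symbols matched 24375 of 24475 identifiers. Motifs and coordinates came from RefSeq tables of GRCm38.p6.

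The members and lists were chosen with earlier results of these data known. Mki67, Ccnd1, Mcm6 and Ccnb1 are named throughout, with up to 3 called genes of each list and direction per comparison by size of change; other genes named were picked after their values were seen.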

Additional observations from a re-analysis of the deposited data

Results flagged for a closer look

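Values that stood far from the other 9 libraries of their group, by Dixon's criterion at the 95% level, numbered 37 of 328 groups of values, where chance flags about 1 in 20. Of these 24 belonged to Control AAV + Gcgr mAb replicate 2, the highest library of its group in each. Its G1/S genes stood at 237 CPM for Ccnd1, 19.6 for Ccnd2, 8.47 for Mcm3, 8.81 for Mcm4 and 17.1 for Mcm7. Its mitosis genes stood at 29.5 CPM for Mki67, 11.2 for Top2a, 7.03 for Cdk1, 11 for Ccna2, 7.64 for Ccnb1, 12.1 for Ccnb2, 2.94 for Foxm1, 3.88 for Plk1, 3.99 for Aurka, 3.88 for Bub1b, 11.9 for Cdc20 and 6.31 for Ube2c. The remaining genes stood at 8.20 CPM for Birc5, 9.75 for Cenpa, 8.36 for Cenpe, 5.70 for Kif11 and 11.5 for Kif20a. Its mean over the sets was 0.88 for G1/S and replication and 2.52 for mitosis, in log2 units above the mean of Control AAV with Control mAb.

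Epac2 KD replicate 9 was the highest of its group for Ccna2 (1.27 CPM), Aurka (1.63 CPM) and the mitosis mean (0.198 log2 units above the Control mean), and Epac2 KD replicate 5 stood apart for Foxm1 (2.0 CPM). Gcgr KD replicate 5 stood apart for Mcm2 (4.24 CPM), Gnas KD replicate 8 for Ccnd1 (23.5 CPM) and Control replicate 7 for Ccne2 (0.148 CPM). In experiment 2, Prkar1a KD + Control mAb replicate 9 stood apart for Tyms (10.7 CPM), Prkar1a KD + Gcgr mAb replicate 2 for Mcm2 (5.97 CPM) and Rrm1 (18.0 CPM), and Control AAV + Control mAb replicate 9 for Mcm4 (3.11 CPM) and Kif20a (0.388 CPM) and replicate 1 for Birc5 (0.359 CPM).

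By edgeR's test the interaction of Prkar1a KD and Gcgr mAb was called in E2f1 (log2 difference 0.70) and Mcm4 (log2 difference 0.73). These calls were lost in 22 (E2f1) and 5 (Mcm4) of 40 removals of 1 library.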

How the results depend on the processing

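No called value changed direction. RLE scaling kept every count within 1.5 times and every call of the named genes, and placing Ccna2, Mki67 and Cdk1 in neither list moved no median beyond the spread. With DESeq2, 1 member was called higher in Gcgr KD and 2 lower in Epac2 KD livers. With limma-voom, 26 were called higher in Gnas KD than in PKA KD livers, 0 lower with Gcgr mAb in Control AAV livers, 1 lower in Prkar1a KD livers with Control mAb, and 1 had a positive interaction. With no filter on low counts, 0 were called lower with Gcgr mAb in Control AAV livers and 1 had a positive interaction. Fitted with only the groups compared, 3 were called higher in Gcgr KD, 2 lower in PKA KD and 3 lower in Epac2 KD livers against Control, 0 and 11 higher in Gnas KD livers than in Gcgr KD and PKA KD livers, and 0 higher and 0 lower with Gcgr mAb in Control AAV livers. The causes were not tested.

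The replicate numbers did not pair the samples: libraries with the same number correlated with a mean r of 0.025 in experiment 1 and 0.021 in experiment 2, and 10 of 50 and 3 of 40 libraries correlated best with their own number. With a replicate block, 14 members were called higher in Gnas KD livers and 1 lower in Prkar1a KD livers with Control mAb.

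Removing 1 library at a time gave the following ranges against the main counts. Members called higher numbered 0 to 2 in Gcgr KD, 11 to 23 in Gnas KD, and 14 to 26 in Gnas KD against PKA KD livers. Members called lower numbered 2 to 6 in PKA KD, 0 to 2 in Epac2 KD and 0 to 3 with Gcgr mAb in Control AAV livers. For Prkar1a KD against Control AAV they numbered 0 to 1 where both had Control mAb and 0 to 1 where both had Gcgr mAb. The interaction was called positive in 0 to 4 and negative in 0 to 1. Mitosis medians ranged over -0.42 to 0.45 with Gcgr mAb in Control AAV livers and -0.37 to 0.46 for the interaction. For Prkar1a KD against Control AAV, both with Gcgr mAb, they ranged over 0.77 to 1.70. For Prkar1a KD with Gcgr mAb against Control AAV with Control mAb they ranged over 1.08 to 1.30. Of the named genes' values, 1859 kept their status as called or not called, 71 lost a call and 10 gained one. Values called in neither fit count as kept even where their sign changed. Many mitosis genes stood at a few CPM, where few reads limit the precision of each library's value.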

Other observations

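Among the PKA KD libraries, the 5 with odd replicate numbers had mitosis means of 0.08 to 1.37 log2 units above the Control mean and the 5 with even numbers -1.18 to -0.49, and the G1/S and replication means were 0.11 to 0.60 and -0.59 to -0.13. Prkaca stood at 9.66 to 23.4 CPM in the odd-numbered and 7.34 to 9.22 CPM in the even-numbered PKA KD libraries, and Prkacb at 8.64 to 13.8 and 6.73 to 12.1 CPM. In Control livers mitosis means were -0.41 to 0.03 in odd-numbered and -0.30 to 0.62 in even-numbered libraries. The labels give no meaning to odd and even numbers, and the split was seen in the data first, so no test was made of it.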
